A study of Homo sapiens with 45 samples.

Results

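The ribosomal protein genes described here are the 77 symbols that code for proteins of the cytosolic ribosome under a naming rule: RPL or RPS followed by a number and at most 1 letter A or X, plus RPLP0, RPLP1, RPLP2 and RPSA. They are 77 of the 28278 gene names in the count table of the main experiment, and 46 belong to the large (60S) and 31 to the small (40S) subunit. RNA was read from HCT116, a human colon cancer cell line, 72 h after transfection of siRNA at 25 nM, in 10 RNA libraries of a series that also holds 35 chromatin immunoprecipitation and input samples. The 4 siNTC5 libraries received a nontargeting control siRNA, and the 4 siHNRNPK libraries received siRNA against HNRNPK, which codes for an RNA-binding protein. In both groups replicates 1 and 2 were made with the TruSeq stranded mRNA kit and replicates 3 and 4 with the stranded mRNA Ligation kit, so kit and replicate number cannot be told apart. A further set, the 2 Scramble libraries, also carries a nontargeting control label; these were TruSeq libraries from RNA purified with another kit and were counted in separate tables. The knockdown was transient, and nothing in the labels says that replicates were separate cultures, so p-values measure the spread between these samples, which may be technical.

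Each ribosome carries a single copy of almost every one of these proteins, and excess free protein is degraded, so the genes are usually expressed as a co-ordinated set. Their mRNAs typically begin with a cytosine followed by a run of pyrimidines, the 5′ terminal oligopyrimidine (TOP) motif, through which LARP1 and the kinase mTOR control their translation and stability. HNRNPK is a KH-domain protein that binds single-stranded C-rich RNA and DNA. Many of the genes also carry small nucleolar RNAs (snoRNAs), guides for rRNA modification, in their introns, and most have processed pseudogene copies that can share reads with the parent gene.

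Start sites are shown for the 3 genes with the largest increase after knockdown and the 3 that fell, among genes with a single start in the table and a mean of at least 500 counts, to set their TOP features side by side. They are from RefSeq (GRCh38.p14), 5′ to 3′ on the transcribed strand, from position -5 to position +20 around the annotated start (+1), 25 bases in all, and capitals mark the longest pyrimidine run that begins between positions -5 and +10. RPS12 lies at chr6:132814564-132814588 on the plus strand, RPL9 at chr4:39458903-39458927 and RPS13 at chr11:17077648-17077672 on the minus strand; these 3 genes rose after knockdown. RPS28 lies at chr19:8321491-8321515 and RPS15 at chr19:1438391-1438415 on the plus strand and RPL29 at chr3:51995876-51995900 on the minus strand; these 3 genes fell.
RPS12: gaggCCTCTTTCCCTgccgccgccg
RPL9: acgacagacgTTCTTTCTTTgctgc
RPS13: gCTCTCCTTTCgttgcctgatcgcc
RPS28: acgtgaCTCCTCTCCgccagaccgc
RPS15: cggaccaaagcgaTCTCTTCTgagg
RPL29: CCTTTCTCTTCCggttctaggcgct

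The marked runs were 11, 10 and 10 bases long in RPS12, RPL9 and RPS13, and 9, 8 and 12 bases long in RPS28, RPS15 and RPL29. The table holds 77 starts for 62 of the 77 genes. A C at the annotated start followed by at least 4 pyrimidines was present at 46 of these starts (59.7%), against 4.07% of the 35116 starts in the table. A pyrimidine run of at least 7 bases beginning between positions -5 and +10 was present at 71.4% of the genes' starts and at 12.2% of all starts. A run of at least 3 C between positions +1 and +50 was present at 39.0% of the genes' starts and at 51.8% of all starts. Only the transcribed strand was read, the pyrimidine runs can hold the C runs, and a match is a description of letters at an annotated start, not of binding.

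HNRNPK itself was read first in every library. Its counts were 15759, 23165, 12342 and 14869 in the siNTC5 libraries, 3798, 2997, 1863 and 1992 in the siHNRNPK libraries and 40701 and 39259 in the Scramble libraries. Scaled to library size as CPM, with means ± SD over n = 4 libraries, HNRNPK fell from 888 ± 80.4 to 198 ± 45.7 CPM. On the log2 scale this is -2.18 ± 0.061 (edgeR quasi-likelihood test, adjusted p = 2.69e-15). Here and below the ± of a log2 fold change is an SE derived from that value and its F statistic. Total counts ranged from 12107280 to 59209169 per library, the Scramble libraries being the deepest. The epithelial markers EPCAM, KRT8, KRT18 and CDH1 were all at 96.2 CPM or more in each of the 8 libraries, while the intestinal markers VIL1, CDX1 and KRT20 were at 0.444 CPM or less. Of the markers for other cells, PTPRC, PECAM1 and ALB were at 0.559 CPM or less, and COL1A1 lay between 44.1 and 119 CPM; the part of these levels in the results was not tested. In bulk samples, fewer cells of a type and less RNA per cell cannot be told apart.

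After HNRNPK knockdown most ribosomal protein mRNAs were more abundant, in both subunits and by modest amounts. Of the 74 genes that could be tested, 56 rose, 3 fell and 15 did not pass the test (edgeR quasi-likelihood test, Benjamini-Hochberg adjusted p under 0.05). The background for this comparison is high: 71.2% of all tested genes were called, 34.9% as higher and 36.4% as lower. The median log2 fold change was 0.29 for the large subunit, with 33 of 46 genes higher and 1 lower, and 0.37 for the small subunit, with 23 of 28 higher and 2 lower, beside -0.011 for all tested genes. In 42 of the 74 genes (26 large, 16 small) every siHNRNPK library lay above every siNTC5 library, a pattern seen in 27.8% of all tested genes. The opposite pattern was seen in none of the 74, but its share among all tested genes was not counted, so nothing is read from it. The direction holds against siNTC5: against the Scramble libraries 25 of 77 genes were higher and 40 lower, as described further on. The 3 genes that were not tested, RPS18 and RPS25 among them, had between 0 and 13 counts in each of the 8 libraries.

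Together the 77 genes took a larger share of each library after knockdown. They held 6.13%, 5.80%, 6.28% and 5.95% of all counts in the siNTC5 libraries and 7.23%, 7.24%, 7.30% and 7.51% in the siHNRNPK libraries. All 4 siHNRNPK libraries were above all 4 siNTC5 libraries, and this was so within each kit. The group means were 6.04% ± 0.21 and 7.32% ± 0.13 (SD, n = 4). Large-subunit genes held 3.95% ± 0.15 and 4.77% ± 0.094, and small-subunit genes 2.09% ± 0.069 and 2.54% ± 0.038. These shares are described without a test, because no p is given for a sum over the genes.

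**Figure D1:**
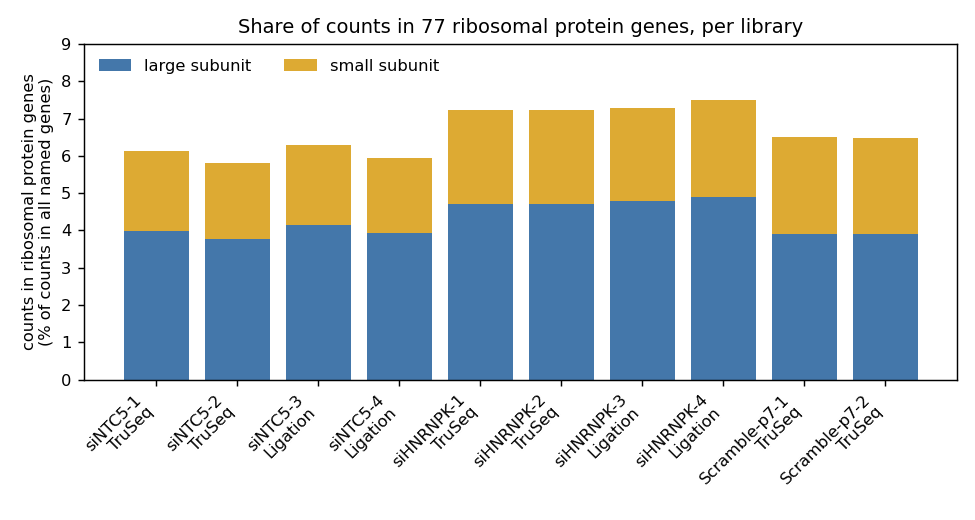
Bars give the summed counts of the 77 ribosomal protein genes as a percentage of all counts in named genes (vertical axis), for each of the 10 RNA libraries, divided into large and small subunit. The 4 siHNRNPK bars reach 7.23% to 7.51%, above the 4 siNTC5 bars at 5.80% to 6.28% and the 2 Scramble bars at 6.49% and 6.48%.

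**Figure D2:**
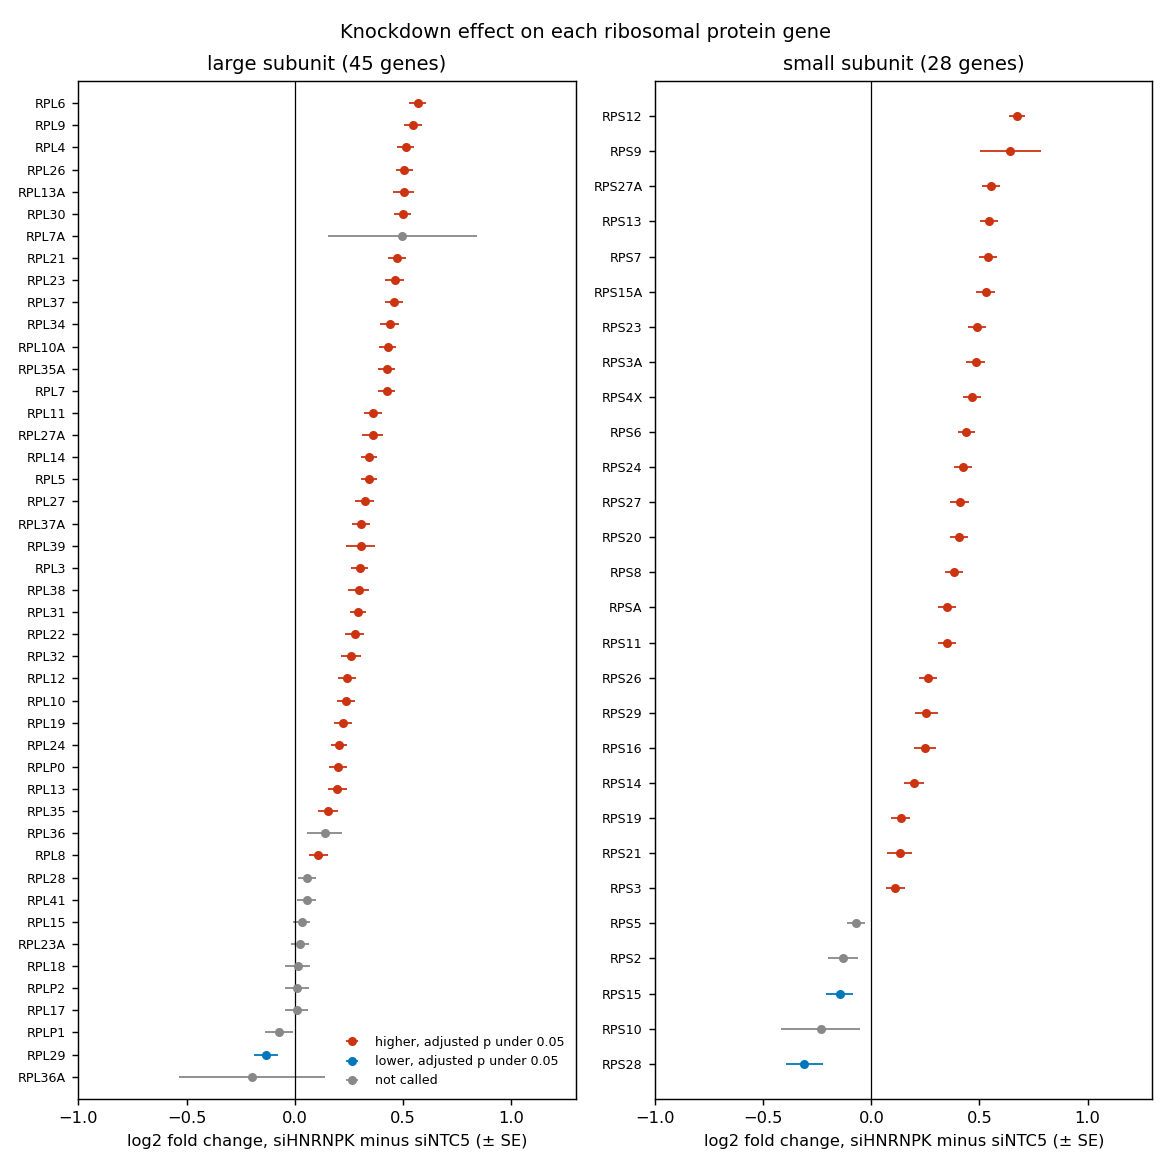
Points give the log2 fold change of siHNRNPK over siNTC5 (horizontal axis) with its standard error, for 45 large-subunit genes (left) and 28 small-subunit genes (right), sorted by size. Red points are the 56 genes that rose, blue the 3 that fell and grey 14 that were not called; RPL7A, RPL36A, RPS9 and RPS10 have the widest errors.

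The genes with the largest increases included 6 of the small subunit. RPS12, a protein of the beak of the 40S head, was read at 740.1, 748, 708 and 659.6 CPM in the siNTC5 libraries and 1174, 1195, 1089 and 1094 CPM in the siHNRNPK libraries. No siHNRNPK library overlapped the controls, and the log2 fold change was 0.67 ± 0.038 (adjusted p = 1.31e-11). RPS27A, made as a fusion with ubiquitin, was at 742, 753, 847 and 748 CPM in the siNTC5 libraries and 1062, 1083, 1213 and 1183 CPM in the siHNRNPK libraries, again without overlap (0.55 ± 0.043, adjusted p = 9.97e-10). RPS13, a protein of the 40S subunit, was at 412, 407, 409 and 371 CPM in the siNTC5 libraries and 573, 605, 591 and 564 CPM in the siHNRNPK libraries. Its lowest siHNRNPK library was above its highest control (0.55 ± 0.042, adjusted p = 1.03e-09). RPS7, which is also known to bind the p53 regulator MDM2, was at 610.3, 605, 593 and 577 CPM in the siNTC5 libraries and 837, 848, 854 and 925 CPM in the siHNRNPK libraries, with all knockdown libraries above all controls (0.54 ± 0.042, adjusted p = 1.17e-09). RPS15A was at 625, 584, 614 and 564 CPM in the siNTC5 libraries and 887, 889, 792 and 877 CPM in the siHNRNPK libraries; the siHNRNPK-3 library was the lowest of its group and still above every control (0.53 ± 0.044, adjusted p = 3.16e-09). RPS9, a protein of the 40S subunit, also rose (0.64 ± 0.14, adjusted p = 0.000423), but from few reads, with 80 to 233 counts per library. It was read at 6.13, 9.8, 5.34 and 5.32 CPM in the siNTC5 libraries and 12.2, 12.2, 7.55 and 9.97 CPM in the siHNRNPK libraries, and its groups overlapped through the siNTC5-2 library.

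Of the large-subunit genes, 4 were among the 10 with the largest increases. RPL6, a surface protein of the 60S subunit, was read at 1189, 1189.9, 1259.9 and 1210.0 CPM in the siNTC5 libraries and 1704, 1704, 1914 and 1880.5 CPM in the siHNRNPK libraries. The groups were far apart in both kits (0.57 ± 0.039, adjusted p = 1.6e-10). RPL9, which sits near the factor-binding site, was at 685, 645, 698 and 658 CPM in the siNTC5 libraries and 934, 922, 1040.0 and 1032 CPM in the siHNRNPK libraries, with no overlap (0.55 ± 0.042, adjusted p = 8.57e-10). RPL4, which lines the tunnel through which the new protein leaves, was at 2613, 2487, 2717 and 2664 CPM in the siNTC5 libraries and 3712, 3648, 3708 and 3889 CPM in the siHNRNPK libraries. Again no siHNRNPK library overlapped the controls (0.51 ± 0.038, adjusted p = 5.91e-10). RPL26, at the tunnel exit, was at 684, 647, 851 and 776 CPM in the siNTC5 libraries and 928, 968, 1150.1 and 1160.0 CPM in the siHNRNPK libraries; the groups separated within each kit, and the lowest siHNRNPK library, at 928 CPM, was above the highest siNTC5 library, at 851 CPM (0.51 ± 0.041, adjusted p = 1.88e-09). In all, 12 genes rose by at least 0.5 on the log2 scale.

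Of the tested genes 3 fell. RPS28, a protein near the mRNA exit, was at 226, 164, 217 and 193 CPM in the siNTC5 libraries and 135, 139, 198 and 179.5 CPM in the siHNRNPK libraries. The siHNRNPK TruSeq libraries were below every control, whereas the Ligation libraries lay among the controls, and the log2 fold change was -0.31 ± 0.084 (adjusted p = 0.00288). It was -0.49 within TruSeq and -0.12 within Ligation, where it was not called. RPS15, whose tail reaches the decoding site, was at 207, 161, 253 and 229 CPM in the siNTC5 libraries and 159, 166, 236 and 207 CPM in the siHNRNPK libraries, with overlapping groups (-0.15 ± 0.064, adjusted p = 0.0479). RPL29, a surface protein of the 60S subunit, was at 669, 559, 704 and 661 CPM in the siNTC5 libraries and 535, 507, 660.2 and 677 CPM in the siHNRNPK libraries, also overlapping (-0.13 ± 0.055, adjusted p = 0.0367). Without the siNTC5-1 library the 3 values were -0.17, -0.064 and -0.056 for RPS28, RPS15 and RPL29, and only RPS28 was still called. RPS15 and RPL29 also lost their calls without siNTC5-3, siHNRNPK-1 or siHNRNPK-2, and RPS15 without siHNRNPK-4 (values from -0.12 to -0.16 for RPS15 and from -0.10 to -0.13 for RPL29), and under DESeq2 size factors or upper-quartile scaling.

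The smallest increases that passed the test were in RPL8, next to the peptidyl transferase centre (0.11 ± 0.043, adjusted p = 0.0316), and RPS3, at the mRNA entry channel (0.11 ± 0.045, adjusted p = 0.0341). RPS21 (0.13 ± 0.058, adjusted p = 0.0499) and RPS19, the gene most often mutated in Diamond-Blackfan anaemia (0.14 ± 0.043, adjusted p = 0.00921), were next. RPL35 at the tunnel exit (0.15 ± 0.048), RPL13 (0.20 ± 0.044) and RPS14, a platform protein lost in the 5q- syndrome (0.20 ± 0.046), followed. With the replicate number as a block in place of the kit term, neither RPL8 (0.10, adjusted p = 0.0572) nor RPS3 (0.11, adjusted p = 0.0638) was called. Without the siHNRNPK-4 library RPL8, RPS3, RPS21 and RPS19 each lost their call, at values of 0.078, 0.073, 0.11 and 0.094. RPL8 also lost it without siNTC5-4 or siHNRNPK-1, RPS3 without siNTC5-1, siNTC5-4, siHNRNPK-1 or siHNRNPK-2, and RPS21, at 0.20 without siNTC5-1, lost it without any other single library but siNTC5-3. Among genes read at high levels, RPL3, which reaches toward the peptidyl transferase centre, rose from 2773 ± 83.2 to 3414 ± 109 CPM (0.30 ± 0.039, adjusted p = 1.43e-06) with no overlap between groups; against the Scramble libraries it was at 0.013 (adjusted p = 0.782). At the other end, RPL36A, RPL7A and RPS10 had the fewest counts of the tested genes and were not called: their log2 fold changes were -0.20 ± 0.34, 0.50 ± 0.35 and -0.23 ± 0.18. Per-gene exon lengths were not used here, so levels are not compared between genes.

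Genes of the same part of the ribosome did not all share 1 outcome; groups this small are described only by their counts. Of the 3 proteins of the P stalk, which recruits the translational GTPases, RPLP0, the stalk base, rose (0.20 ± 0.041, adjusted p = 0.000226). The other two, the stalk proteins RPLP1 at -0.073 ± 0.064 and RPLP2 at 0.012 ± 0.055, were not called. RPL5 and RPL11, which form the 5S RNP with 5S rRNA and can bind MDM2, both rose (0.35 ± 0.038 and 0.36 ± 0.042). RPL5 was read at 1287, 1265, 1219.6 and 1155 CPM in the siNTC5 libraries and 1668, 1642, 1479.9 and 1474 CPM in the siHNRNPK libraries, and RPL11 at 846, 797, 932 and 842 CPM in the siNTC5 libraries and 1069, 1070.3, 1099 and 1154 CPM in the siHNRNPK libraries. Neither gene overlapped between groups. Of 8 genes at the exit tunnel, 6 rose and none fell; RPL17 (0.010 ± 0.052) and RPL23A (0.025 ± 0.040) were not called. Of 7 genes at the mRNA channel and decoding site, 4 rose (RPS23, RPS26, RPS14 and RPS3), RPS28 and RPS15 fell, and RPS2 was not called (-0.13 ± 0.068, adjusted p = 0.0919). Of 18 genes mutated in Diamond-Blackfan anaemia, 17 were tested, 13 rose and RPS28 alone fell.

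The 29 genes that host snoRNAs, 60 of them by RefSeq positions, are set beside the rest. Of the hosts 22 of 29 rose and none fell, with a median of 0.35, and of the other genes 34 of 45 tested rose and 3 fell, with a median of 0.28. The shares that rose were alike, at 75.9% of the hosts and 75.6% of the others, beside 34.9% of all tested genes. The difference between these groups was not tested.

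The increase was present in each kit taken alone. In the TruSeq libraries 53 genes were higher and 4 lower, where 28.5% of all tested genes were higher, and in the Ligation libraries 56 of the 73 tested were higher and none lower, where 33.8% of all tested genes were higher. Of the 56 genes that rose in all libraries, 53 were called higher in TruSeq alone and 54 in Ligation alone. The 56 were picked from these same libraries, and this overlap was not counted over all genes that rose, so it is no separate support. The per-library medians were 0.30 and 0.32 (large) and 0.35 and 0.38 (small) for siHNRNPK-1 and siHNRNPK-2, and 0.27 and 0.29 (large) and 0.32 and 0.38 (small) for siHNRNPK-3 and siHNRNPK-4, each against the siNTC5 libraries of the same kit. No gene was called for a knockdown effect that differed between kits: 0 of 74 passed in edgeR and 0 in DESeq2, 8 had an unadjusted p under 0.05, and 0.137% of all tested genes were called. Without the siNTC5-2 library 8 genes were called for the interaction, among them RPL18, RPLP1, RPLP2, RPL36, RPL29, RPS28 and RPS2, and without siNTC5-1 only RPL39. These names were chosen after their values were seen.

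**Figure D3:**
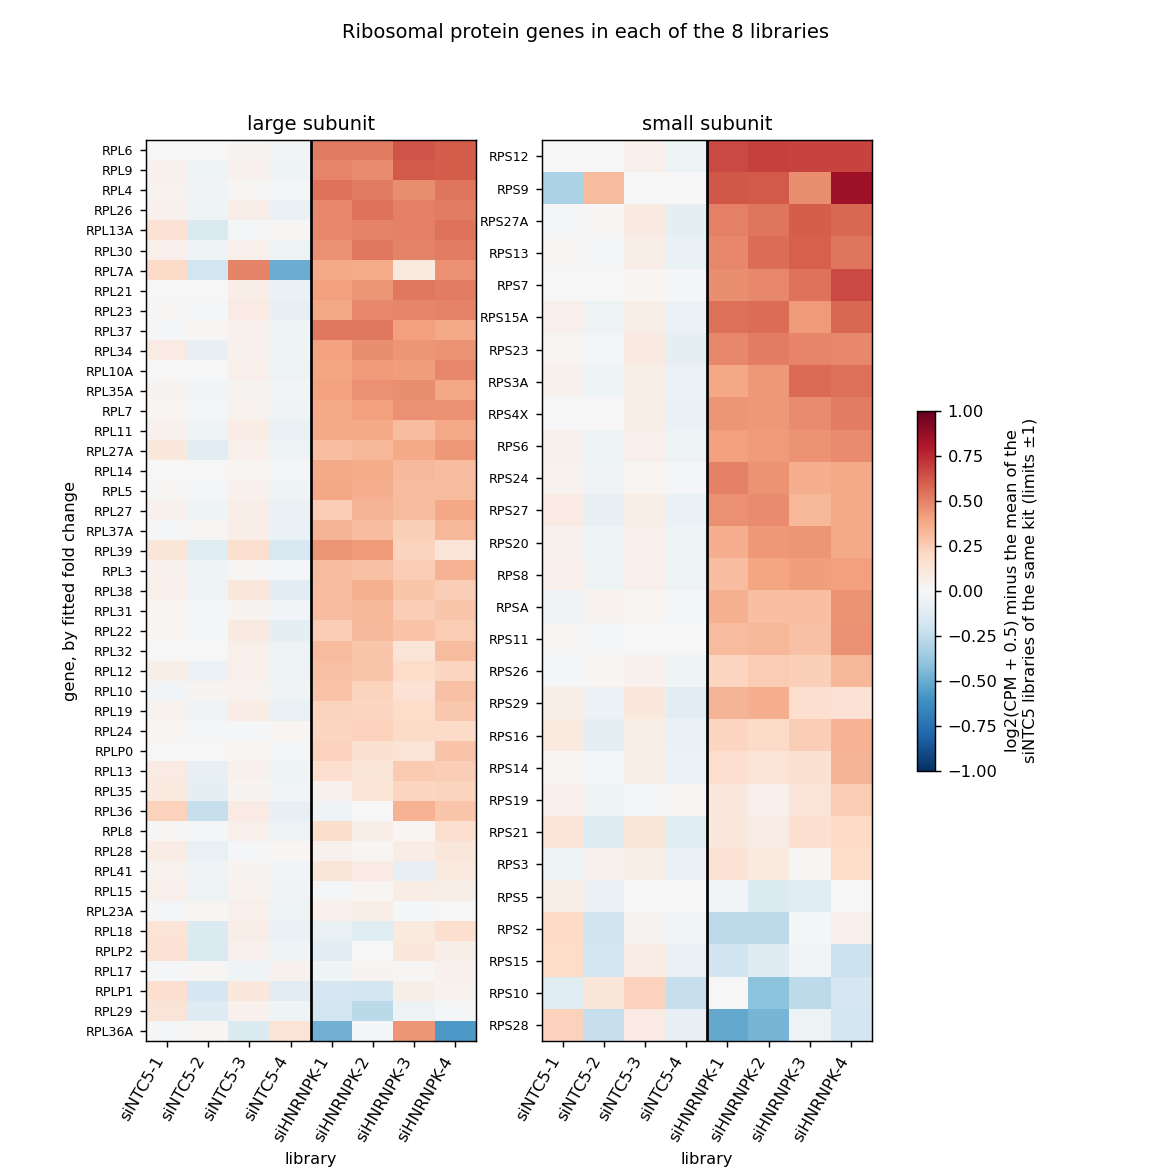
Colours give log2(CPM + 0.5) of the genes plotted (rows, sorted by fitted fold change within subunit) in each of the 8 libraries (columns), minus the mean of the 2 siNTC5 libraries of the same kit. The 4 siHNRNPK columns are red for most genes, and the lowest rows, such as RPS28 and RPS2, are blue mainly in siHNRNPK-1 and siHNRNPK-2 and in siNTC5-2.

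Many ribosomal protein genes also differed between the library kits, in both directions. Of the 74 genes, 43 differed between kits, 25 higher and 18 lower in Ligation, where 28.1% of all tested genes were called, 14.4% as higher and 13.7% as lower. The medians were 0.037 for the large and -0.040 for the small subunit. All 43 had the same sign in siNTC5 and in siHNRNPK libraries. They were picked by the joint fit of these libraries, which favours a shared sign. That share was not counted over all genes called for kit, so nothing is read from it. In siNTC5 alone 16 genes were called (background 14.4%) and in siHNRNPK alone 47 (background 21.9%). Among the largest differences toward Ligation were those of RPL36 (0.53 ± 0.080, adjusted p = 0.0001), the stalk proteins RPLP1 (0.42 ± 0.064) and RPLP2 (0.35 ± 0.055), and RPS15 (0.42 ± 0.064). RPL36 was read at 283 and 206 CPM in the siNTC5 and 235 and 240.5 CPM in the siHNRNPK TruSeq libraries, against 329 and 294 CPM and 396 and 378 CPM in the Ligation libraries. RPLP1 was read at 827 and 658 CPM in the siNTC5 and 656 and 644 CPM in the siHNRNPK TruSeq libraries, against 984 and 847 CPM and 950.1 and 936 CPM in the Ligation libraries. In both genes every Ligation library lay above every TruSeq library. Toward TruSeq, RPL10, which completes the peptidyl transferase centre late in assembly (-0.32 ± 0.042, adjusted p = 2.92e-05), and RPL38, known for its role in translation of Hox mRNAs in mice (-0.31 ± 0.048), differed most among well-read genes. RPL10 was read at 1361 and 1419.8 CPM in the siNTC5 and 1694 and 1624 CPM in the siHNRNPK TruSeq libraries, against 1152 and 1097 CPM and 1243 and 1381 CPM in the Ligation libraries. Within each treatment its kits did not overlap. The low-count genes RPL7A (-2.36 ± 0.38), RPS10 (-0.72 ± 0.18) and RPS9 (-0.54 ± 0.14) had the largest differences of all toward TruSeq. RPS9 was at -0.37 and not called without the siNTC5-2 library.

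Kit and knockdown values are set side by side here because both come from the same libraries. Of the 18 tested genes that did not rise after knockdown, 11 were higher and 3 lower in Ligation. Of the 56 that rose, 14 were higher and 15 lower in Ligation. Both counts split the genes by calls from those same libraries, and no such split was counted over all tested genes. RPS15, RPL29 and RPS28, the genes that fell, had kit differences of 0.42 ± 0.064, 0.26 ± 0.055 and 0.26 ± 0.084. Kit was a term in the model of the knockdown, and its part in these values beyond that term was not tested.

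**Figure D4:**
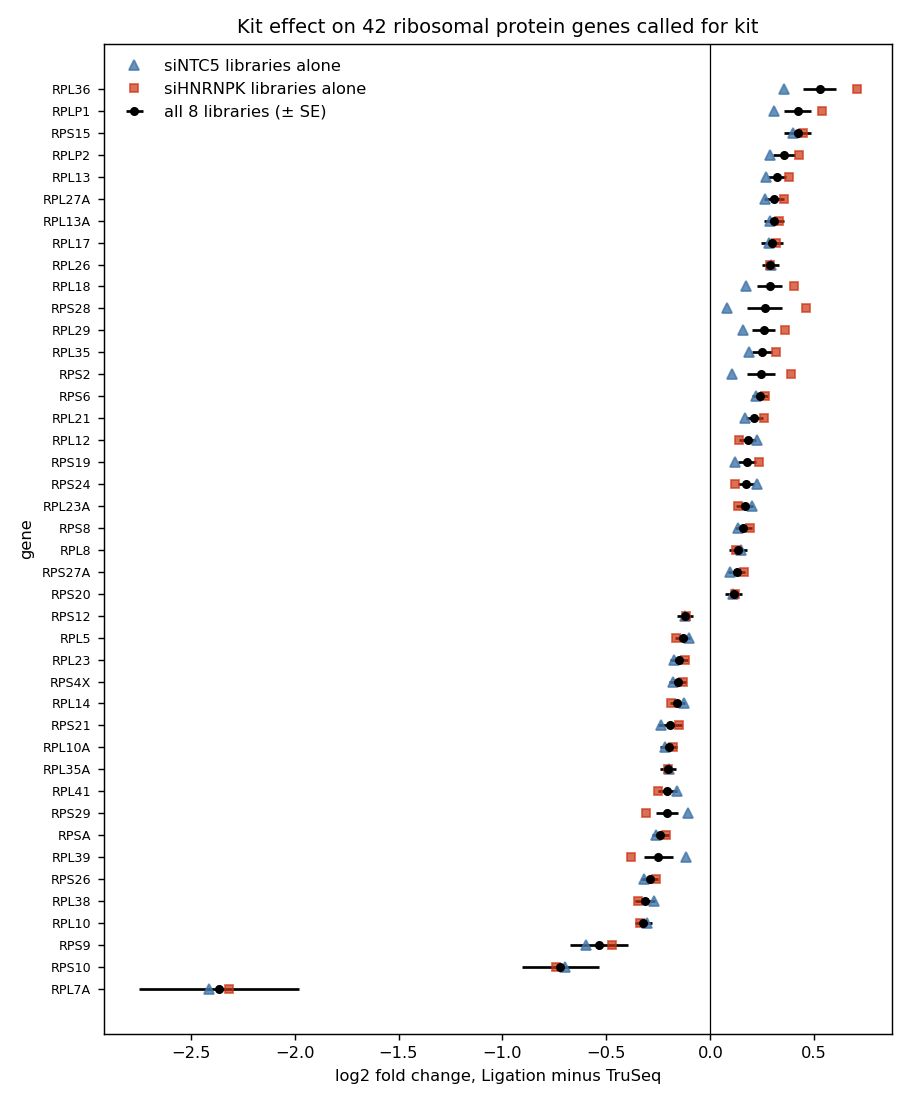
Points give the log2 fold change of Ligation over TruSeq (horizontal axis) for 42 of the 43 genes called for kit, from all 8 libraries with its standard error (black), from the 4 siNTC5 libraries (blue triangles) and from the 4 siHNRNPK libraries (red squares). The 24 genes on the right and 18 on the left keep their side in both treatments, from RPL36 at 0.53 to RPL7A at -2.36. They were picked by the joint fit of these libraries, which favours a shared side.

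The Scramble libraries, a second set of nontargeting controls, differed from siNTC5 at most ribosomal protein genes. Against the 4 siNTC5 libraries, with kit in the model, 71 of 77 genes differed, 53 higher and 18 lower in Scramble, where 68.6% of all tested genes differed, 35.1% as higher and 33.5% as lower. The medians were 0.38 for the large and 0.53 for the small subunit, beside 0.0029 for all tested genes, and are the same with RPL21 at the bound given below. Scaling to library totals moved the median of all genes to -0.18, and the genes' calls to 47 higher and 22 lower. The siRNA, the purification kit, the count table and the depth differ together between these sets and cannot be told apart. CPM values in the next paragraphs are normalised over the siNTC5 and Scramble libraries and differ slightly from those above.

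A small number of genes differed by far more than the rest: 11 were past 2 on the log2 scale. In the 5 that were higher, the 8-library table held almost no reads. RPS18, of the 40S head, had 4, 13, 1, 1, 5, 9, 0 and 4 counts in its libraries, siNTC5 first, and 90233 and 85828 counts in the Scramble libraries (12.04 ± 0.12, adjusted p = 2.35e-15). RPS25, known for its part in internal ribosome entry, had 0, 11, 0, 1, 6, 3, 0 and 0 counts there and 38797 and 37208 in Scramble (11.45 ± 0.20). RPL7A had 33, 33, 9, 1, 35, 31, 4 and 7 and 78471 and 73921 (9.88 ± 0.15), and RPS9 had 103, 233, 80, 97, 185, 164, 90 and 122 and 42841 and 38960 (6.66 ± 0.12). The low level was shared by both siRNA groups of that table. These fold changes depend on the prior count, since so few reads stand on one side: RPS25 was at 17.49 without the siNTC5-2 library, which held 11 of its 12 siNTC5 counts.

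The reverse was seen in 6 genes. RPL21 had 8242, 11583, 8591, 9540, 9873, 8984, 9417 and 9579 counts in the 8 libraries and 0 in both Scramble libraries. With a floor of 3 counts per library, Scramble was at least 9600.4-fold below the siNTC5 mean. That bound uses CPM without TMM scaling, and the floor was at most 0.0545 CPM. The siNTC5 mean was 524 CPM on that scale and the lowest siNTC5 library 490 CPM, for which the bound is smaller. RPS26 had 296 and 210 counts in the Scramble libraries and was read at 229, 234, 191 and 179.9 CPM in the siNTC5 libraries and 5.74 and 4.43 CPM in the Scramble libraries (-5.50 ± 0.10, adjusted p = 1.16e-13). RPS28 was at 225, 164, 217 and 192 CPM in the siNTC5 libraries and 24.6 and 24.8 CPM in the Scramble libraries (-2.97 ± 0.12). RPS27, a zinc-finger protein of the 40S subunit, was at 445, 399.6, 492 and 449 CPM in the siNTC5 libraries and 59.9 and 62.4 CPM in the Scramble libraries (-2.79 ± 0.071). RPL7 was at 1757, 1704, 1688 and 1602 CPM in the siNTC5 libraries and 264 and 261 CPM in the Scramble libraries (-2.72 ± 0.057), and RPL9 at 682, 643, 695 and 655 CPM in the siNTC5 libraries and 131 and 143 CPM in the Scramble libraries (-2.27 ± 0.064). In none of these 6 did a Scramble library come near a siNTC5 library, and the 2 Scramble libraries were close to each other.

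Processed copies also differed between the tables. RPSAP58, a copy of RPSA, the laminin receptor gene, had 81 to 226 counts in the 8 libraries and 73270 and 70110 in Scramble, while RPSA itself was lower in Scramble (-1.23 ± 0.053). RPS26P11 had 0 to 2 counts in the 8 libraries and 822 and 716 in Scramble. A narrower sum took the 28 listed pseudogenes named RPL or RPS, a number, at most 1 letter, then P and a number. They held 0.00890% to 0.0106% of counts in the 8 libraries and 0.0205% and 0.0192% in Scramble. Copies of RPSA, such as RPSAP58, fall outside that pattern and are not in the sum. RPSAP58 alone had more counts in Scramble than these 28 together, at 12118 and 10575. RefSeq names 1966 numbered copies of the 77 genes, and how reads that match several places were counted is not given in the sources used here, so single genes with near-identical copies are uncertain in every comparison. By RefSeq positions 23 of the genes overlap another gene, among them RPS28 (KANK3), RPL36 (LONP1), RPS27A (CLHC1) and RPS10 (RPS10-NUDT3), and the strand setting of the counting is not given either. The part of counting in the differences between the tables was not tested.

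**Figure D5:**
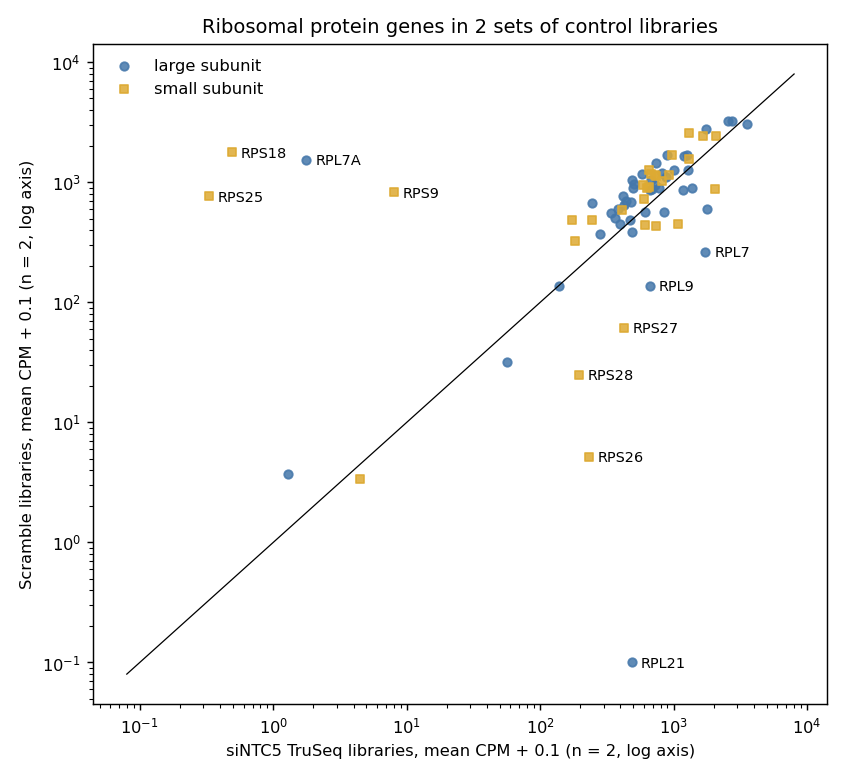
Each point is 1 of 75 genes, with its mean CPM + 0.1 in the 2 siNTC5 TruSeq libraries (horizontal log axis) and in the 2 Scramble libraries (vertical log axis); the line marks equal values. The 10 labelled genes lie past 2 on the log2 scale, 4 above the line at the left and 6 below it, with RPL21 at 0 counts in Scramble.

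When the Scramble libraries stood in for siNTC5 as the controls, the increase after knockdown was no longer the rule. In that comparison 25 of 77 genes were higher and 40 lower in siHNRNPK, where 38.8% of all tested genes were higher and 42.8% lower, and the medians were -0.095 for the large and -0.34 for the small subunit. Of the 56 genes that rose against siNTC5, 21 were higher and 24 lower against Scramble. Between the control sets 57 genes lay within 1 on the log2 scale, a subset picked from these same libraries. Of these, 43 were still called higher and 8 lower in Scramble than in siNTC5, and 6 were not called. After knockdown 45 of the 57 rose and 2 fell against siNTC5, and 15 were higher and 30 lower against Scramble. The share of all genes under the same limit was not counted. RPS12 was 0.030 (adjusted p = 0.534) and RPS13 -0.041 (adjusted p = 0.43) against Scramble, where RPL6 was 0.96, RPS7 0.91 and RPL4 0.15. RPL6 (adjusted p = 2.55e-20), RPS7 (adjusted p = 1.84e-18) and RPL4 (adjusted p = 0.00144) were called higher. Both comparisons share the siHNRNPK libraries, and only siNTC5 shares their table and purification. Scramble libraries held 6.49% and 6.48% of counts in the 77 genes, between the values of siNTC5 and siHNRNPK; the large subunit, at 3.91% and 3.90%, was near siNTC5 and the small subunit, at 2.58% in both, near siHNRNPK.

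Other genes of the ribosome and of translation were read from lists in the knockdown comparison, whose background is given above. Of 10 ribosomal protein genes outside the naming rule, 7 were tested, 5 rose and none fell. RPL22L1, the paralogue of RPL22, rose from 215 ± 9.76 to 344 ± 25.6 CPM (0.68 ± 0.050, adjusted p = 5.18e-10), and RPL7L1 from 298 ± 21.2 to 359 ± 2.26 CPM (0.27 ± 0.044); FAU, which carries RPS30, was at 0.017 ± 0.053 (adjusted p = 0.784). Of 34 tested translation factors 26 rose and 4 fell, with a median of 0.28. The largest changes were in EIF2S3, the gamma subunit of the initiation factor that brings the initiator tRNA (1.02 ± 0.039, adjusted p = 4.34e-14), EIF5, which triggers its GTP hydrolysis (0.86 ± 0.044), and the helicase EIF4A2 (0.71 ± 0.038). Ribosome assembly factors rose in 30 and fell in 7 of 42, with a median of 0.37; RRP12, an export factor (1.16 ± 0.057), and the kinase RIOK2 (0.91 ± 0.069) rose, and IPO5, an importin that carries ribosomal proteins into the nucleus, fell (-1.17 ± 0.043, adjusted p = 3.15e-14).

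Genes of RNA polymerase I transcription rose in 10 and fell in 3 of 17 tested, among them RRN3 (0.84 ± 0.23, at only 1.27 and 2.26 CPM), TAF1D (0.81 ± 0.050) and POLR1B (0.70 ± 0.057). Regulators of ribosomal protein mRNAs rose in 11 and fell in 9 of 28, HNRNPK included. MLST8, a subunit of the mTOR complexes, fell from 50.7 ± 7.5 to 14.9 ± 0.551 CPM (-1.76 ± 0.10, adjusted p = 8.68e-12) and EIF4EBP2, a translation repressor and mTOR target, from 154 ± 4.1 to 66.9 ± 4.52 CPM (-1.20 ± 0.049, adjusted p = 1.13e-13), both without overlap between groups. The proteins of the mitochondrial ribosome showed no common direction: of 75 tested genes 22 rose and 28 fell, with a median of 0.027. MRPS25 (-1.19 ± 0.071), MRPS18A (-1.09 ± 0.087) and MRPL28 (-0.79 ± 0.087) had the largest changes, all downward. Against the Scramble libraries the lists read differently in part: 18 of 37 translation factors were higher and 12 lower, with a median of 0.091, and EIF4A2 was at 0.011 (adjusted p = 0.832). There 28 ribosome assembly factors were higher and 7 lower, 9 genes of RNA polymerase I transcription higher and 4 lower, 12 regulators higher and 12 lower, 26 mitochondrial ribosomal proteins higher and 34 lower, and 3 of the genes outside the naming rule higher and 3 lower. In that comparison RPL22L1 was at -0.24, RRN3 at -5.95 and MRPS25 at 0.062, opposite in sign to their values against siNTC5.

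In the chromatin data, the 77 gene bodies were set against the domains that the authors listed. None of the 77 gene bodies touched a lamin B1 domain of control or knockdown cells, a control H3K9me2 domain or a control H3K9me3 domain, which 1.66% to 4.37% of 13767 tested genes with a position did; shares this low leave little room below them, and nothing particular to the 77 genes is read from the 0. In both H3K27me3 lists 4 genes, among them RPL38, RPS19 and RPS24, touched a domain (5.19%, beside 15.2% and 13.2% of tested genes for control and knockdown). In the H3K9me3 list of knockdown cells 2 genes, RPL8 and RPS10, touched a domain (2.60%, beside 9.65% of tested genes). Sharing any base with a domain depends on gene length, which was not matched, and the 77 include genes that were not tested. The lower shares are therefore not read as a trait of the 77 genes. The genes in these counts were named after their values were seen. Knockdown values of the RNA were 0.30 for RPL38, 0.14 for RPS19, 0.42 for RPS24, 0.11 for RPL8 and -0.23 for RPS10, so genes touching a domain included both risers and genes not called.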

How the data were processed

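The data were gene counts of 10 RNA libraries of HCT116 cells and 7 lists of chromatin domains. The authors deposited raw counts, with 8 libraries in a joint table and each of the 2 Scramble libraries in its own. Reads were aligned with STAR 2.7.1a and counted with featureCounts, per the submitters' processing notes, which name Subread 2.0.6 for the 8 libraries, hg38 for those and both hg19 and hg38 for Scramble. The annotation, the strand setting and the handling of multi-mapping reads are not given in the sources used here. The deposited domain lists carry a score of unknown unit, which was not used; a gene touched a domain if its RefSeq body shared a base with it.

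Ribosomal protein genes were picked by symbol, with members, roles and lists chosen with earlier results of these data known. Groups follow the labels. Counts were fitted for all genes in edgeR 4.0.16 (limma 3.58.1, R 4.3.3): filterByExpr on the model matrix, TMM scaling, quasi-likelihood test, kit and treatment in the model, Benjamini-Hochberg threshold 0.05, no minimum fold change. Scramble was compared with siNTC5 on the 25527 names shared by the tables. DESeq2 1.42.0, other scalings, filters, controls and leaving out each library were alternatives. The procedure was tested on simulated counts with changes larger than any knockdown change of the tested ribosomal protein genes. No minimum recovery was set there for the interaction. That test therefore does not show how many modest changes or interaction effects are missed. CPM values are TMM-scaled. Errors are SD over n = 4 or, for log2 fold changes, an SE. That SE is the absolute log2 fold change divided by the square root of the quasi-likelihood F statistic. Gene names described were HNRNPK, the 10 highest and 10 lowest called fold changes (knockdown), the 5 highest and 5 lowest (kit, Scramble), the 3 highest and 3 lowest mean CPM, and the 3 largest called changes of each list; genes named by role were added, and the values of some genes are not reported here. Total counts of 12107280 to 59209169 per library set the precision. Deviations of same-numbered siNTC5 and siHNRNPK libraries were compared over 14237 genes, which are not independent replicates. By number, 1 to 4, r was 0.15, 0.52, 0.43 and 0.35, past a rule of 0.1. Once kit was removed r was 0.074 or 0.012, under that rule, so no link beyond the shared kit was shown. With 2 libraries per group and kit the deviations mirror each other, so numbers 1 and 2 share a value, as do 3 and 4. No label gives another link, and the main model held kit but no pairing. Promoter sequence came from RefSeq (GRCh38.p14).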

Additional observations from a re-analysis of the deposited data

Results flagged for a closer look

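In 5 genes 1 library of a group of 4 stood apart from the others by Dixon's criterion at 95%, out of 108 groups examined. Chance alone marks about 1 in 20 groups. The groups examined did not cover all 74 tested genes, so the 5 are not a total for the ribosomal protein genes. RPS27A was at 847 CPM in siNTC5-3 and at 742 to 753 CPM in the other siNTC5 libraries. RPS13 was at 371 CPM in siNTC5-4 and at 407 to 412 CPM in the others. RPS15A was at 792 CPM in siHNRNPK-3 and at 877 to 889 CPM in the others, and RPS14 was at 651 CPM in the same library and at 728 to 742 CPM in the others. RPL7 was at 2309 CPM in siHNRNPK-2 and at 2261 to 2269 CPM in the others, a narrow range throughout. Each of these genes was called higher after knockdown with all libraries.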

How the results depend on the processing

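The count of genes called after knockdown, in either direction, kept within 1.5 times of 59 under all alternatives except 2. It was 18, all higher, with the Scramble libraries added as controls, and 12 with a minimum log2 fold change of 0.5. The count hides a turn in direction: with Scramble in place of siNTC5 it was 65, with 25 higher and 40 lower. With a replicate block in place of the kit term 57 genes were called, 54 higher and 3 lower, and RPL8 and RPS3 lost their calls; without the kit term 49 were higher and 0 lower. The large-subunit median, 0.29, was 0.34 with upper-quartile factors, 0.27 with unscaled library totals, 0.27 with no filter on low counts, 0.34 with a mean of at least 50 counts, 0.32 in TruSeq and 0.27 in Ligation alone, and 0.27 to 0.32 when single libraries were left out. The small-subunit median, 0.37, was 0.41 with upper-quartile factors and 0.41 with a mean of at least 50 counts. With Scramble added, the medians were 0.19 (large) and 0.11 (small).

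Signs turned mainly with the Scramble controls. With Scramble added, RPS9 was at -2.58, RPS28 at 0.15, RPL8 at -0.12, RPS3 at -0.064, RPS21 at -0.21, RPS19 at -0.14, RPL35 at -0.058, RPL13 at -0.12, RPL7A at -7.60 and RRN3 at -2.87, none of them called. With Scramble in place of siNTC5, an alternative chosen after seeing the data, the medians were -0.095 (large) and -0.34 (small), RPS9 was at -6.12, RPS13 at -0.041, RPS28 at 2.44, RPL8 at -0.60, RPS3 at -0.45, RPS21 at -0.93, RPS19 at -0.76, RPL35 at -0.57, RPL13 at -0.81, RPS14 at -0.34, RPL7A at -9.42, RPS10 at 0.19, RPL22L1 at -0.24, RRN3 at -5.95 and MRPS25 at 0.062. RPL36A, never called against siNTC5, ranged from -0.54 to 0.0071 when single libraries were left out (above 0 without siHNRNPK replicate 4) and was at 0.00034 in Ligation alone. The cause of these changes was not tested.

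The kit count, 43, was 16 in the siNTC5 libraries alone and 47 in the siHNRNPK libraries alone; the cause was not tested. The interaction count, 0, was 4 with no filter on low counts (RPL36, RPS28 and RPS2 among them, named after their values were seen) and 0 to 8 when single libraries were left out. Over the names shared by the tables the share of counts was 7.54% in siHNRNPK, 6.85% in Scramble and 6.22% in siNTC5. Counts of called genes for the Scramble comparison were 69 to 73 under all alternatives. Few counts in the 8-library table limit the precision of RPL36A, RPL7A, RPS10 and RPS9, and 3 genes, RPS18 and RPS25 among them, could not be tested there; a mean of at least 500 counts leaves 58 genes called after knockdown, 55 higher and 3 lower.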
